A study of Mus musculus with 7 samples.

Results

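Solute carriers are membrane proteins that move sugars, amino acids, nucleotides, metals and other small solutes across the plasma membrane and the membranes of organelles. Each family, marked by the number after Slc, carries its own kind of substrate, and many members are exchangers or are driven by sodium or proton gradients. In fibroblasts they take up amino acids for collagen synthesis and for the redox state of the cell, and the carriers of the inner mitochondrial membrane link the cytosol with mitochondrial metabolism. Members were chosen by symbol: every gene of the count table whose name holds Slc, a family number, a letter and a member number. 213 symbols matched. Slc2a1, Slc2a3, Slc16a1 and Slc16a3, the best known glucose and lactate carriers, were left out by the rule, and 3 of these 4 are in the table. The remaining 210 genes of 12771 were grouped into classes by the substrate that their family is known to carry. The rule uses no measured value.

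Cancer-associated fibroblasts (CAFs) were sorted from orthotopic pancreatic tumors as CD45-/CD31-/EpCAM-/PDPN+ cells. The tumors grew in C57BL/6J males, aged 8 weeks, from cells of the KPC pancreatic cancer line that had been transduced with a lentiviral hairpin and selected with puromycin. The hairpin was against Brca2 in KPC-shBrca2 and non-targeting in KPC-shControl, and tumors were collected 2 to 3 weeks after injection. The series holds 3 libraries of shControl (numbered 1, 2 and 4) and 4 of shBrca2 (numbered 1 to 4), prepared by a MARS-seq variant, a 3'-end RNA-seq method. The silencing was in the injected cancer cells of a single line, while the host fibroblasts carried no hairpin, so the level of Brca2 in these libraries, 11 to 14 counts in shControl and 5 to 21 in shBrca2, does not check the labels. The study describes as many mice in each group as there are libraries, so the replicates are tumors of separate animals.

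Total counts ran from 1898679 to 5990579 per library, and solute carrier genes took 0.887% to 0.958% of each library, with 204 to 209 of the 210 genes detected. Fibroblast markers were abundant in every library, but their summed level over 12 genes was lower in every shBrca2 library, at 142481 to 161155 normalized counts in shControl and 115349 to 137045 in shBrca2. Genes of high level weigh most in this sum, such as Col3a1, with a mean of 54982 in shControl and 40400 in shBrca2. The median log2 fold change of the 12 was -0.09, and the sorting marker Pdpn was at -0.25 and not called. None of the 12 was called higher in shBrca2, while Dcn and Lum were called lower. Of 8 epithelial and cancer cell markers in the table, 5 (Krt7, Krt8, Krt18, Krt19 and Elf3) were called higher in shBrca2. The summed level of the 8 genes, mostly keratins, was 414.3 to 1166 normalized counts in shControl and 1472 to 2083 in shBrca2. Cdh1, Cldn7 and Muc1 were not called, at log2 fold changes of 1.59, 0.58 and 0.01. Epcam, Cldn4, Esrp1 and Ocln were listed too but are not in the count table. 3 of 10 pericyte and smooth muscle markers (Notch3, Des and Acta2) and 7 of 16 hypoxia targets were also called higher, with Car9 at 22 ± 13.5 normalized counts (SD, n = 3) in shControl and 193.8 ± 26.6 (SD, n = 4) in shBrca2. Adm was the 1 hypoxia target called lower. Other lists held 1 call higher of 8 mesothelial genes, 2 higher and 2 lower of 7 immune genes, and 1 higher and 3 lower of 8 acinar genes. All 8 acinar genes had an unadjusted DESeq2 p under 0.05, beside 17.7% of all genes tested. Their median log2 fold change was -2.19, and Cela1 was the 1 that was higher. Of 5 endothelial genes 0 were called, with a median of -1.11. The mesothelial call was Krt19, which is in the epithelial list too. Over all genes tested, 3.77% were called higher and 5.27% lower. The differences in these markers run along the same contrast as every result that follows, and their part in those results was not tested. In sorted bulk RNA, fewer cells of a type and less RNA per cell cannot be told apart.

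The comparison asked which transporters differed between CAFs of Brca2-silenced and control tumors. Counts were divided by the size factor of each library to give normalized counts, and the group term was tested with the DESeq2 likelihood ratio test over all genes of the table. The call required 3 things of a gene, namely an adjusted p (Benjamini-Hochberg) below 0.1, a log2 fold change (shBrca2 over shControl) beyond 0.5 in either direction, and a mean above 5 normalized counts. 20 solute carrier genes were called, 10 higher and 10 lower in shBrca2. This is 9.52% of the 210 genes, beside 9.04% of all genes tested, a share near the background. In each direction 3.77% of all genes were called higher and 5.27% lower. The calls of each class and list below are to be read against these shares. Among genes whose mean passed 5, 10.6% of 189 solute carrier genes were called beside 9.92% of 11629 genes. The median log2 fold change of the family was -0.02, beside 0.008 for all genes tested. The size of the differences, as the median absolute log2 fold change of genes with a mean over 5, was 0.34 in the family and 0.26 over all genes. The groups did not overlap for 47 members (22.4%), beside 17.1% of all genes, and all 20 called genes were among them.

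The promoters of 3 called members are printed first. Slc38a4 had the largest fold change of the 20 called genes and Slc29a1 the lowest p. Slc39a8 was taken because it imports the metal whose response motif was searched, and not for the strength of its call. Each run is the 250 bases before an annotated start in RefSeq, build GRCm38.p6, written 5′ to 3′ on the strand of the gene, with capitals marking matches to the searched motifs on either strand.
Slc38a4, chr15:97055957-97056206, minus strand: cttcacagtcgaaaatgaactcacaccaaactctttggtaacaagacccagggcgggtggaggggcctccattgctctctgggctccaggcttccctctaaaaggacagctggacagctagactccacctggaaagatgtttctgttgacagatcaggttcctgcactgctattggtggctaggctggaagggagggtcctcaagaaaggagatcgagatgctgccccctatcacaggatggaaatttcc
Slc29a1, chr17:45595865-45596114, minus strand: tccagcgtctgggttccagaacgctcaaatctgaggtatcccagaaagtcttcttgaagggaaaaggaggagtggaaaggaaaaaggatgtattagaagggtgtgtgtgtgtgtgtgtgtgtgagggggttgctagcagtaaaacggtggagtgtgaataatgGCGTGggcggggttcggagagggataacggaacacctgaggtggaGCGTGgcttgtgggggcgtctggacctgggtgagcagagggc
Slc39a8, chr3:135825407-135825656, plus strand: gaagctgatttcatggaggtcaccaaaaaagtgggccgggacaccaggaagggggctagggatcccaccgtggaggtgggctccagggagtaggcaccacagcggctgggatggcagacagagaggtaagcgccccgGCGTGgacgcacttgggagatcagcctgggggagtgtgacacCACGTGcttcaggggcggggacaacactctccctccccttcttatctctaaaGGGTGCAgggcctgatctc

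The motifs were ACGTG or GCGTG (the core bound by hypoxia-inducible factors), TGATGNAA (the core of the amino acid response element) and TGCACNC or TGCGCNC (the core of the metal response element), and overlapping matches were each counted. Slc38a4 held no match in this window, the outermost of its 3 annotated starts. Slc29a1 held 2 hypoxia core matches and Slc39a8 held 3, of which a palindrome gave a pair, plus 1 metal core match. For Slc29a1 and Slc39a8 the window with the most matches was taken from 8 and 2 starts. Over windows of 300 bases, 43.8% of all 32851 promoters in the table held the hypoxia core, 25.7% the metal core and 3.97% the amino acid core. Among 9 windows of 5 members called higher, 5 held the hypoxia core, 5 the metal core and 0 the amino acid core. Among 18 windows of 8 members called lower, the numbers were 7, 8 and 0, and among 191 windows of 146 members that were not called they were 120, 64 and 7. A match is a description of the letters only.

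**Figure D1:**
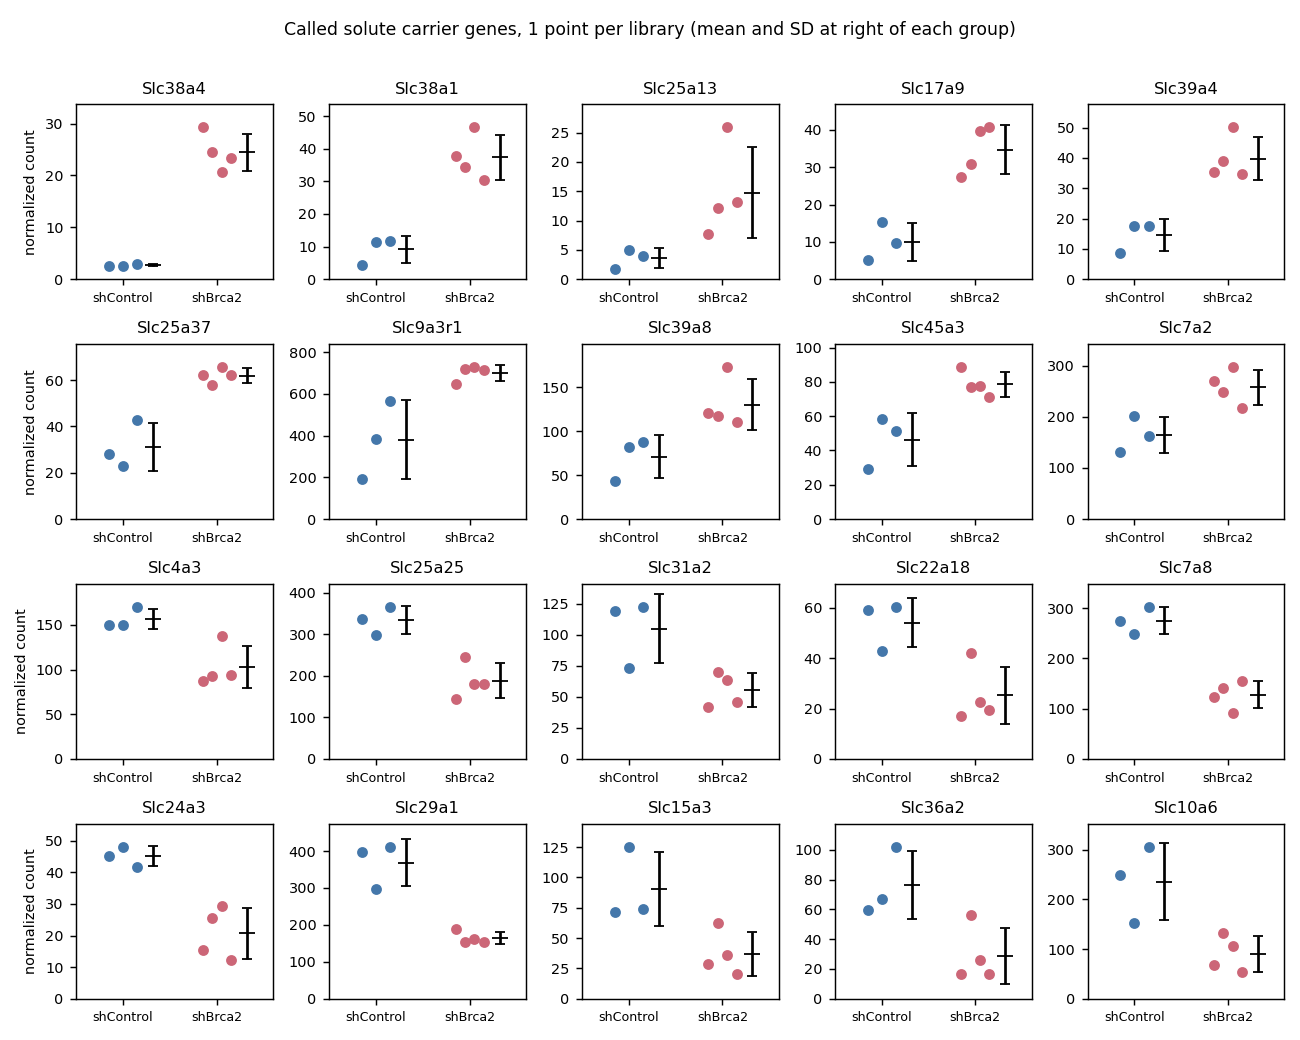
Normalized counts of the 20 called solute carrier genes on linear axes that start at 0, 1 panel per gene, with 1 point per library (3 shControl in blue, 4 shBrca2 in red) and the group mean with its SD to the right of the points. The groups do not overlap for any of the 20 genes, and Slc38a4 has the largest ratio of group means, with 2.53 to 2.92 in shControl and 20.7 to 29.3 in shBrca2.

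Amino acid carriers numbered 34. Of these, 3 were called higher (Slc38a4, Slc38a1 and Slc7a2) and 2 lower (Slc7a8 and Slc36a2), and the median log2 fold change of the class was -0.15. Slc38a4 (chr15:96994816-97055956) is an imprinted gene that encodes a sodium-coupled carrier of neutral amino acids. Normalized counts were 2.56, 2.53 and 2.92 in shControl and 29.3, 24.5, 20.7 and 23.4 in shBrca2. Every shBrca2 library was above every shControl library, and the gene was close to its detection limit in shControl, with 2 or 3 counts a library. Its log2 fold change was 3.21 ± 0.62 (SE; DESeq2 adjusted p = 1.3e-06). Pooled over libraries and scaled for depth, 111 counts in shBrca2 against 8 in shControl gave a ratio of 9.34, with a 95% exact binomial interval of 4.58 to 22.2 that covers counting error only.

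Slc38a1 (chr15:96571418-96643438), on the same chromosome as Slc38a4, encodes a related carrier that concentrates glutamine and other neutral amino acids in the cell. It had 4.27, 11.4 and 11.7 normalized counts in shControl and 37.9, 34.4, 46.6 and 30.5 in shBrca2. The lowest shBrca2 library was well above the highest shControl library. The fitted log2 fold change was 2.06 ± 0.43 (SE; DESeq2 adjusted p = 8.8e-05). Both Slc38a4 and Slc38a1 were called in each of the 13 alternative fits. The third of the amino acid carriers called higher, Slc7a2 (chr8:40862341-40922070), takes up arginine and other cationic amino acids. In normalized counts it stood at 130.7, 201.1 and 161.5 in shControl and 270.2, 247.7, 297.1 and 216.5 in shBrca2. The groups were separated by a narrow gap, and the log2 fold change was 0.65 ± 0.21 (SE; DESeq2 adjusted p = 0.032). The call of Slc7a2 was lost when single libraries were left out, with an adjusted p of 0.31 in the fit lacking shControl replicate 1, 0.17 lacking shControl replicate 4, 0.18 lacking shBrca2 replicate 1 and 0.11 lacking shBrca2 replicate 3.

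Slc7a8 (chr14:54722215-54781886) encodes the light chain LAT2, which pairs with the heavy chain Slc3a2 to exchange neutral amino acids. Its normalized counts were 275, 248 and 302.5 in shControl and 123.9, 141.6, 91.5 and 154.5 in shBrca2. The whole shBrca2 group lay below the lowest shControl library, with a log2 fold change of -1.09 ± 0.21 (SE; DESeq2 adjusted p = 1.6e-05), and the call held in all 13 alternative fits. Its heavy chain Slc3a2 was at 1427 ± 32.8 normalized counts (SD, n = 3) in shControl and 1307 ± 124.7 (SD, n = 4) in shBrca2, a log2 fold change of -0.12 with a 95% interval of -0.39 to 0.14. Slc36a2 (chr11:55158468-55185099) encodes a proton-coupled carrier of glycine, alanine and proline. It had 59.8, 67 and 102.1 normalized counts in shControl and 16.4, 56.5, 25.9 and 16.3 in shBrca2. shBrca2 replicate 2 came close to the lowest shControl library, and the other shBrca2 libraries were far below it. On the log2 scale the fold change was -1.38 ± 0.43 (SE; DESeq2 adjusted p = 0.026). Without shControl replicate 4 the adjusted p of Slc36a2 was 0.19, without shBrca2 replicate 1 it was 0.12, and without shBrca2 replicate 4 it was 0.11.

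Several other widely used amino acid carriers did not pass the call. Slc1a5, a glutamine and neutral amino acid exchanger, had a log2 fold change of -0.40 (95% interval -0.84 to 0.03), and Slc38a2, a carrier that cells raise when amino acids are scarce, had -0.24 (95% interval -0.60 to 0.11). Slc7a5, another light chain of Slc3a2, was at 0.43 (95% interval -0.18 to 1.03). Slc7a1, a cationic amino acid carrier like Slc7a2, was at 51.3, 65.8 and 74.9 normalized counts in shControl and 113.6, 96.8, 76 and 84.4 in shBrca2. Its groups did not overlap, but the DESeq2 adjusted p was 0.19 at a log2 fold change of 0.55. Slc7a10, a carrier of small neutral amino acids including D-serine, passed the adjusted p (0.0054) but not the count filter, with a mean of 3.93 normalized counts. It had 8, 3 and 15 counts in shControl and 0, 1, 1 and 0 in shBrca2, a depth-scaled ratio of shBrca2 to shControl of 0.0518 with a 95% exact binomial interval of 0.00596 to 0.207. Slc7a10 was named after its values were seen. Of 18 genes that respond to amino acid supply, Ddit4 was called higher at a log2 fold change of 0.72 and Atf5 lower at -0.80, and the median was 0.03.

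Zinc carriers numbered 18, of which 2 were called higher and 0 lower, and their median log2 fold change was 0.06. Both called genes encode importers. Slc39a4 (chr15:76612383-76618506), the ZIP4 zinc importer, had 8.54, 17.7 and 17.5 normalized counts in shControl and 35.3, 39.1, 50.1 and 34.6 in shBrca2. The lowest shBrca2 library was well above the highest shControl library, and shControl replicate 1 was the lowest of all. The log2 fold change was 1.46 ± 0.37 (SE; DESeq2 adjusted p = 0.0036), and without shControl replicate 1 the adjusted p was 0.12. Slc39a8 (chr3:135816882-135888572), the ZIP8 importer of zinc, manganese and cadmium, had 42.7, 82.2 and 87.6 normalized counts in shControl and 120.5, 117.2, 172.7 and 109.8 in shBrca2. shControl replicate 1 was low and shBrca2 replicate 3 was high within their groups. For Slc39a8 the log2 fold change was 0.87 ± 0.29 (SE; DESeq2 adjusted p = 0.042), and the adjusted p was 0.33 lacking shControl replicate 1, 0.11 lacking shBrca2 replicate 1 and 0.13 lacking shBrca2 replicate 3. The inflammation-induced importer Slc39a14 was at -0.40 (95% interval -0.86 to 0.06), a value that rests on shControl replicate 2 and was -0.05 lacking it, and Slc30a1, the zinc exporter of the plasma membrane, was at -0.21. Metallothioneins, which bind zinc and are induced by it, were at log2 fold changes of 0.01 (Mt1) and -0.10 (Mt2) and were not called.

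Of the 9 carriers of iron, heme, copper and magnesium, 1 was called lower and 0 higher, with a median of -0.07. Slc31a2 (chr4:62280393-62298412), a copper transporter homolog found on endosomes and lysosomes, had 119.6, 73.4 and 122.6 normalized counts in shControl and 42.2, 69.9, 63.9 and 45.7 in shBrca2. shControl replicate 2 and shBrca2 replicate 2 nearly met. For Slc31a2 the log2 fold change was -0.93 ± 0.29 (SE; DESeq2 adjusted p = 0.02), and the adjusted p was 0.17 lacking shControl replicate 1 or shControl replicate 4, 0.15 lacking shBrca2 replicate 1 and 0.12 lacking shBrca2 replicate 4. Slc31a2 shares 264 of its 2279 exon bases with Fkbp15 in a later annotation, and Fkbp15 was not called at a log2 fold change of -0.18. Slc11a1, a phagosome carrier of iron and manganese, was at -1.04 but not called (DESeq2 adjusted p = 0.23). In the list of 13 iron and zinc handling genes outside the family, Hmox1, which degrades heme, and Ncoa4, which directs ferritin to degradation, were called higher at 0.90 and 1.23. The ferritin light chain Ftl1 was called lower at -0.62.

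Mitochondrial carriers of the Slc25 family, 34 genes, had 2 calls higher and 1 lower and a median log2 fold change of 0.02. Slc25a37 (chr14:69241848-69285544), mitoferrin-1, imports iron into mitochondria and is best known from red cell precursors. Normalized counts were 28.2, 22.8 and 42.8 in shControl and 62, 57.7, 65.6 and 62 in shBrca2. The shBrca2 libraries lay close together above a wider shControl group. Its log2 fold change was 0.97 ± 0.29 (SE; DESeq2 adjusted p = 0.018), and the adjusted p of Slc25a37 was 0.19 lacking shControl replicate 1, 0.13 lacking shControl replicate 2 and 0.12 lacking shBrca2 replicate 1. The erythroid genes of the table, Alas2 and Slc4a1, summed to 3.42 to 10.7 normalized counts in shControl and 45.5 to 92.1 in shBrca2, with Alas2 called higher. Slc4a1, the red cell anion exchanger and itself a member, had 0, 1 and 0 counts in shControl and 8, 1, 0 and 5 in shBrca2 and was not called. The part of erythroid RNA in the value of Slc25a37 was not tested.

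Slc25a13 (chr6:6041218-6217304), citrin, exchanges aspartate for glutamate in the malate-aspartate shuttle. It had 1.71, 5.06 and 3.89 normalized counts in shControl and 7.75, 12.2, 25.9 and 13.2 in shBrca2, all low levels that rest on 2 to 21 counts a library. The fitted log2 fold change was 2.05 ± 0.68 (SE; DESeq2 adjusted p = 0.037). The pooled, depth-scaled ratio of 58 to 10 counts was 3.9, with a 95% exact binomial interval of 1.98 to 8.57. The call of Slc25a13 was lost without shControl replicate 1 (adjusted p = 0.28), shControl replicate 4 (0.12), shBrca2 replicate 3 (0.17) or shBrca2 replicate 4 (0.1). Slc25a25 (chr2:32414487-32451470), a calcium-regulated carrier that exchanges ATP-Mg for phosphate, was the mitochondrial carrier called lower. In normalized counts it stood at 336.5, 298.6 and 365.8 in shControl and 143.7, 245.4, 181.3 and 180.9 in shBrca2. Every shBrca2 library was below the shControl group, and the log2 fold change was -0.82 ± 0.21 (SE; DESeq2 adjusted p = 0.0036), with the call kept in all 13 alternative fits.

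The carriers that serve oxidative phosphorylation in most cells stayed near 0 with narrow intervals. The adenine nucleotide translocators Slc25a4 and Slc25a5 were at log2 fold changes of -0.09 (95% interval -0.35 to 0.16) and 0.10 (95% interval -0.27 to 0.46). The phosphate carrier Slc25a3 was at 0.22 (95% interval -0.05 to 0.48), and its groups did not overlap, with every shBrca2 library above shControl. Ucp2, a carrier of the same inner membrane family whose symbol falls outside the rule, had 42.7, 121.4 and 126.5 normalized counts in shControl and 322.7, 353.8, 329.9 and 316.1 in shBrca2. Its groups were far apart, with a log2 fold change of 1.78 ± 0.30 (SE; DESeq2 adjusted p = 4.0e-06).

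**Figure D2:**
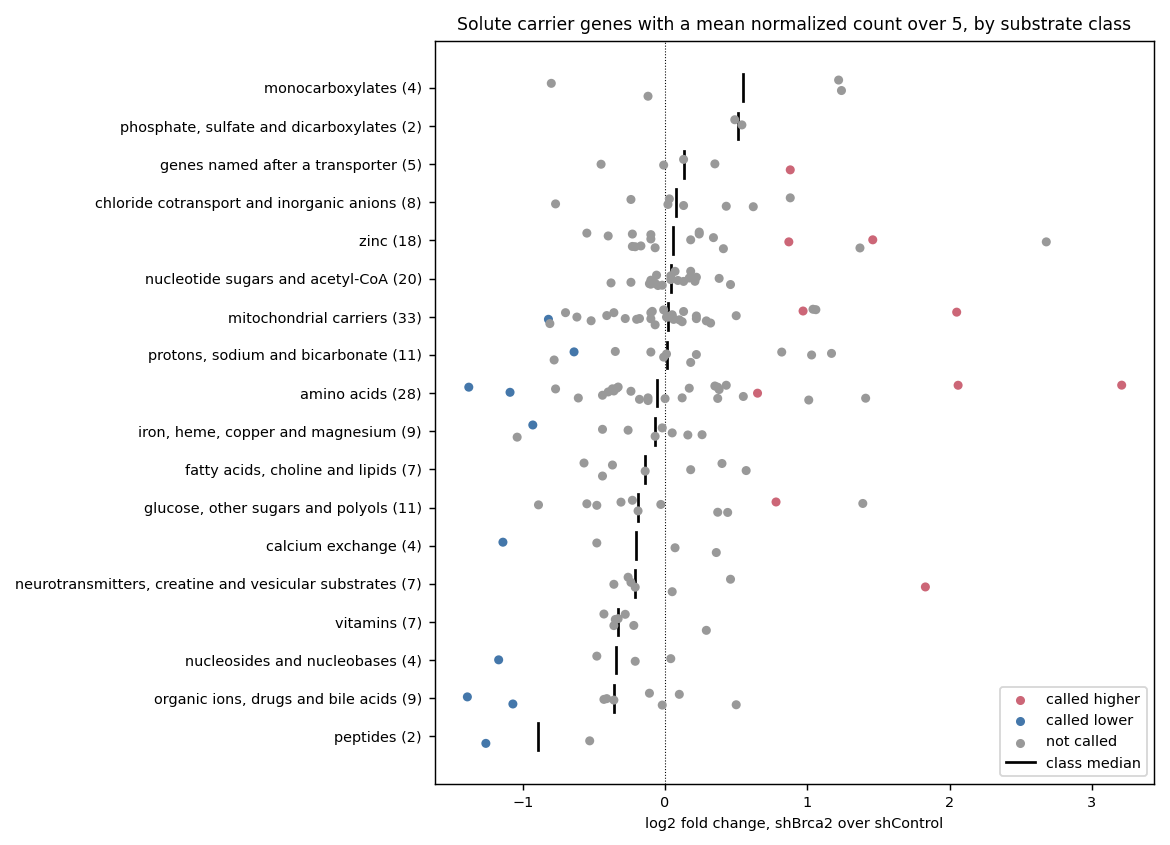
Log2 fold change (shBrca2 over shControl) of the 189 solute carrier genes with a mean normalized count over 5, by substrate class with the number of genes in brackets, 1 point per gene (red called higher, blue called lower, gray not called) and a black line at the class median of these genes; a class whose single gene had a lower mean is not drawn. Amino acid carriers run from called lower to called higher, with Slc38a4 at 3.21, while the nucleotide sugar carriers stay between -0.38 and 0.46.

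The 4 nucleoside and nucleobase carriers held 1 call lower, Slc29a1, and 0 higher, with a median log2 fold change of -0.35. Slc17a9, a nucleotide carrier, was the 1 call among 8 carriers of neurotransmitters, creatine and vesicular substrates, whose median was -0.11. Slc29a1 (chr17:45585200-45599618), the equilibrative nucleoside transporter ENT1 that takes up adenosine and many nucleoside drugs, had the lowest p of the family. Its normalized counts were 398, 297.3 and 411.5 in shControl and 189.3, 155, 162.3 and 152.5 in shBrca2. The shBrca2 libraries lay in a tight group well below shControl. On the log2 scale the fold change was -1.17 ± 0.19 (SE; DESeq2 adjusted p = 1.9e-07), and the call held in all 13 alternative fits. Slc17a9 (chr2:180724576-180742280) loads ATP and other nucleotides into secretory vesicles. It had 5.13, 15.2 and 9.73 normalized counts in shControl and 27.5, 30.9, 39.7 and 40.7 in shBrca2. The groups were well apart, with a log2 fold change of 1.83 ± 0.43 (SE; DESeq2 adjusted p = 9.3e-04), and this call too held in all 13 alternative fits. Slc43a3, a purine nucleobase carrier, passed the adjusted p (0.086) but missed the fold threshold at a log2 fold change of -0.48. Slc43a3 was named after its values were seen.

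The 2 members called lower among 11 carriers of organic ions, drugs and bile acids were Slc10a6 and Slc22a18, and the class median was -0.36. Slc10a6 (chr5:103605711-103629403) takes up sulfated steroid hormones. Normalized counts were 249.4, 151.8 and 305.5 in shControl and 67.1, 132.9, 105.4 and 53.9 in shBrca2. shControl replicate 2 was the lowest and shBrca2 replicate 2 the highest of their groups, and they stayed apart. The log2 fold change was -1.39 ± 0.33 (SE; DESeq2 adjusted p = 0.0012), with the call kept in all 13 alternative fits. Slc22a18 (chr7:143473726-143499334) lies in an imprinted region, and its substrate is not well established. It had 58.9, 43 and 60.3 normalized counts in shControl and 17.2, 42, 22.5 and 19.3 in shBrca2. shBrca2 replicate 2 nearly reached shControl replicate 2. For Slc22a18 the log2 fold change was -1.07 ± 0.37 (SE; DESeq2 adjusted p = 0.049), and the adjusted p was 0.22 lacking shControl replicate 1 or shControl replicate 4, 0.25 lacking shBrca2 replicate 1, 0.1 lacking shBrca2 replicate 3 and 0.2 lacking shBrca2 replicate 4. Of the Slco genes, organic anion carriers whose symbols fall outside the rule, Slco2b1 and Slco3a1 were called lower at -1.40 and -1.04 (DESeq2 adjusted p = 0.095 and 4.1e-05). Slco2a1, Slco4a1 and Slco5a1 were not called, at 0.62, -0.10 and 1.39.

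Among 3 peptide carriers, Slc15a3 was called lower. Slc15a3 (chr19:10842544-10857915) moves histidine and small peptides out of lysosomes and endosomes and is known from innate immune cells. In normalized counts it stood at 71.8, 125.2 and 73.9 in shControl and 28.4, 62.4, 36.3 and 20.3 in shBrca2. Replicate 2 was the highest library in each group. Its log2 fold change was -1.26 ± 0.38 (SE; DESeq2 adjusted p = 0.017), and without shControl replicate 2 the adjusted p of Slc15a3 was 0.13. Slc15a3 shares 1542 of its 5503 exon bases with Tmem132a in a later annotation, and Tmem132a was not called at a log2 fold change of -0.16. The 7 immune markers summed to 315 to 339.5 normalized counts in shControl and 399 to 431.3 in shBrca2, but they did not move together. Csf1r, which takes up much of that sum, and C1qa were called higher, Jchain and Mzb1 were called lower, and Cd68 and Lyz2 were at log2 fold changes of -0.32 and -0.26. The part of immune RNA in the value of Slc15a3 was not tested. Slc15a4, its close relative, had groups that did not overlap and differed by -0.53 on the log2 scale (DESeq2 adjusted p = 0.21). Unc93b1, which carries endosomal Toll-like receptors, was called lower at -0.72 (DESeq2 adjusted p = 0.069).

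Exchangers that set calcium, pH and bicarbonate held 1 call lower in each class. Slc24a3 (chr2:145167775-145642166), a potassium-dependent sodium-calcium exchanger, was 1 of 5 calcium exchangers and had 45.3, 48.1 and 41.8 normalized counts in shControl and 15.5, 25.6, 29.4 and 12.2 in shBrca2. The shControl libraries were close together and every shBrca2 library was below them. For Slc24a3 the log2 fold change was -1.14 ± 0.35 (SE; DESeq2 adjusted p = 0.022), and the adjusted p was 0.13 lacking shControl replicate 1, 0.18 lacking shBrca2 replicate 1 and 0.16 lacking shBrca2 replicate 4. Slc4a3 (chr1:75546044-75559431), an anion exchanger of chloride for bicarbonate, was 1 of 12 proton, sodium and bicarbonate carriers. It had 150.3, 150.5 and 170.2 normalized counts in shControl and 86.9, 92.7, 138.2 and 93.5 in shBrca2. shBrca2 replicate 3 stood above the rest of its group. For Slc4a3 the log2 fold change was -0.64 ± 0.22 (SE; DESeq2 adjusted p = 0.049). Its adjusted p was 0.17 lacking shControl replicate 1, 0.29 lacking shControl replicate 4, 0.32 lacking shBrca2 replicate 1, 0.19 lacking shBrca2 replicate 2 and 0.25 lacking shBrca2 replicate 4.

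Slc9a3r1 (chr11:115163341-115181178) matched the symbol rule but encodes NHERF1, a scaffold that anchors transporters at the apical membrane of epithelia and is no carrier itself. Its normalized counts were 190.5, 385.8 and 566.2 in shControl and 645.4, 720.4, 728.8 and 713.5 in shBrca2. The shBrca2 libraries were close together, while shControl spread widely and replicate 1 was lowest. The fitted log2 fold change was 0.88 ± 0.29 (SE; DESeq2 adjusted p = 0.046), and without shControl replicate 1 the adjusted p of Slc9a3r1 was 0.16. The summed epithelial markers ordered the shControl libraries the same way, at 414.3, 803.3 and 1166 normalized counts in replicates 1, 2 and 4. So did the summed mesothelial markers, at 1286, 1881 and 4236, but Krt19 is in both sums. In shBrca2 the order differed, with epithelial sums of 1928, 1472, 1639 and 2083 in replicates 1 to 4. The part of these cells in the value of Slc9a3r1 was not tested. Slc45a3 (chr1:131962915-131982972), named prostein for its level in prostate and placed with the sugar carriers, had 29, 58.2 and 51.6 normalized counts in shControl and 88.6, 76.9, 77.7 and 71.1 in shBrca2. The groups were apart, again with shControl replicate 1 lowest. For Slc45a3 the log2 fold change was 0.78 ± 0.28 (SE; DESeq2 adjusted p = 0.067). Its adjusted p was 0.49 lacking shControl replicate 1, 0.15 lacking shControl replicate 4, 0.32 lacking shBrca2 replicate 1, 0.16 lacking shBrca2 replicate 2, 0.12 lacking shBrca2 replicate 3 and 0.16 lacking shBrca2 replicate 4. It was the only one of 12 sugar and polyol carriers that was called.

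Several classes held no call. None of the 22 genes grouped by family as carriers of nucleotide sugars and acetyl-CoA was called by DESeq2 or edgeR. Of these, 0 had an unadjusted DESeq2 p under 0.05, beside 17.7% of all genes tested. Their differences were small, with a median absolute log2 fold change of 0.11 over the 20 genes with a mean over 5, beside 0.26 over all genes. The CMP-sialic acid carrier Slc35a1 had 109.3, 106.3 and 105.1 normalized counts in shControl and 111.9, 117.2, 108.8 and 81.3 in shBrca2, and the sulfate donor carrier Slc35b2 had a log2 fold change of -0.10 (95% interval -0.37 to 0.18). DESeq2 and edgeR also called none of 9 chloride and inorganic anion carriers, 8 vitamin carriers, 7 lipid carriers, 6 monocarboxylate carriers and 2 phosphate carriers. At an unadjusted DESeq2 p under 0.05 these classes held 1, 0, 0, 2 and 2 genes, to be read against the same 17.7%. In the first of them that gene was Slc26a2, a sulfate carrier needed for cartilage matrix, at 0.88 on the log2 scale (DESeq2 adjusted p = 0.13).

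Neither phosphate carrier was called. Slc20a1, a sodium-phosphate cotransporter, had 183.6, 189.8 and 164.4 normalized counts in shControl and 243.5, 213.3, 274.6 and 282.6 in shBrca2. The groups did not overlap and the DESeq2 adjusted p was 0.077, but the log2 fold change of 0.49 was just under the threshold. Slc20a2, its partner in the class, was at 0.54 with an adjusted p of 0.19. Xpr1, the phosphate exporter, whose symbol falls outside the rule, was called higher at 0.77 on the log2 scale (DESeq2 adjusted p = 0.011). In the monocarboxylate class, without the lactate carriers set aside, Slc16a4 was at 1.24 (DESeq2 adjusted p = 0.21) with 1.27 to 12.6 normalized counts in shControl and 12.1 to 20.7 in shBrca2.

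**Figure D3:**
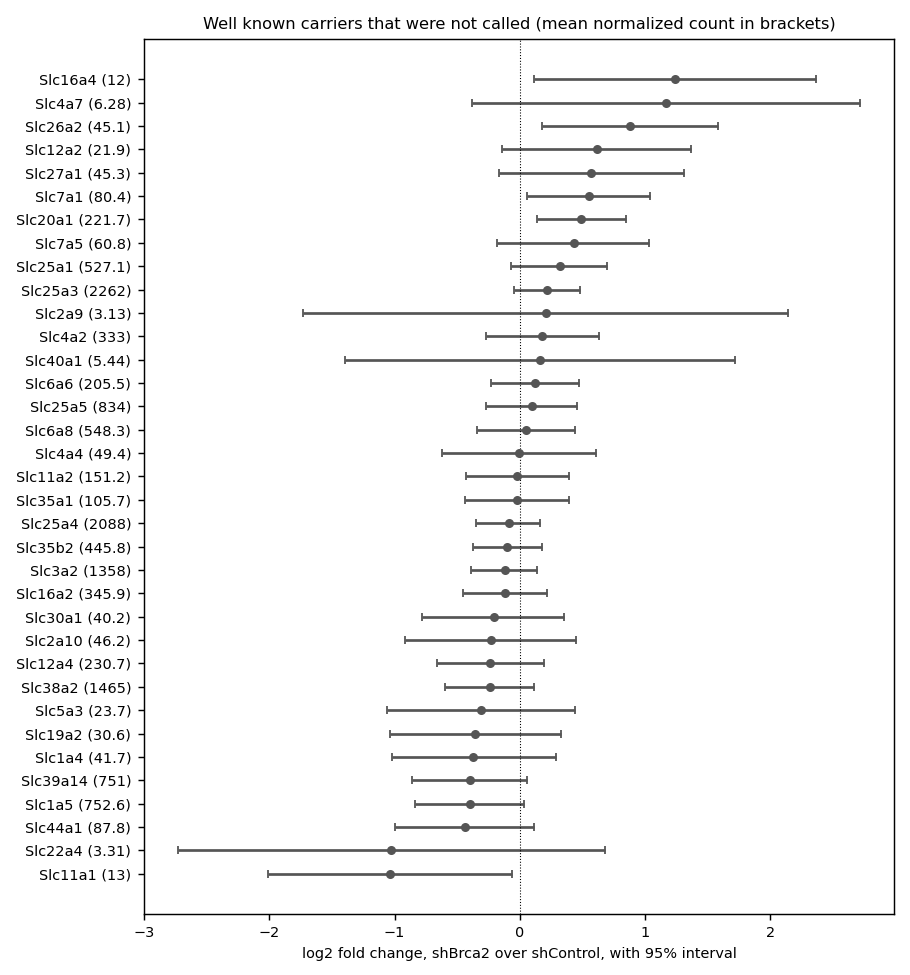
Log2 fold change (shBrca2 over shControl) with its 95% interval for the 35 well known solute carrier genes that were not called, with the mean normalized count over all libraries in brackets. 16 points are above 0 and 19 below, and 21 intervals lie within 1 log2 unit of 0.

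39 well known members of the table were named whatever their values. 4 were called (Slc38a1, Slc9a3r1, Slc39a8 and Slc29a1). Of the other 35, 5 had an unadjusted p under 0.05, a threshold that 17.7% of all genes passed, and for 21 the 95% interval of the log2 fold change stayed within 1 log2 unit of 0. A missed call does not show that a gene was equal in both groups, and for carriers of low level such as Slc2a9 the interval spans changes of several fold in both directions. The creatine carrier Slc6a8 was at 0.05 (95% interval -0.34 to 0.44) and the taurine carrier Slc6a6 at 0.12 (95% interval -0.23 to 0.47).

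Genes that work with solute carriers or belong to the superfamily under other symbols were counted in the same fit. In that fit 3.77% of all genes were called higher and 5.27% lower. Of 33 superfamily members with other symbols, 3 were called higher (Ucp2, Xpr1 and Sv2a) and 3 lower (Slco2b1, Slco3a1 and Unc93b1), and the median log2 fold change was -0.10. Of 24 partners and pumps, 1 was called higher and 3 lower, with a median of -0.15. The called genes included Fxyd6 and Fxyd1, small regulators of the sodium pump. Fxyd6 had 1930, 1713 and 1666 normalized counts in shControl and 683.3, 892.4, 735.7 and 725.7 in shBrca2. It was far lower in every shBrca2 library, at a log2 fold change of -1.22 ± 0.15 (SE; DESeq2 adjusted p = 4.5e-12), while Fxyd1 was at -0.92 (adjusted p = 0.0047). The metal reductases Steap1 and Steap3 were called in opposite directions, at 0.75 and -1.05.

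**Figure D4:**
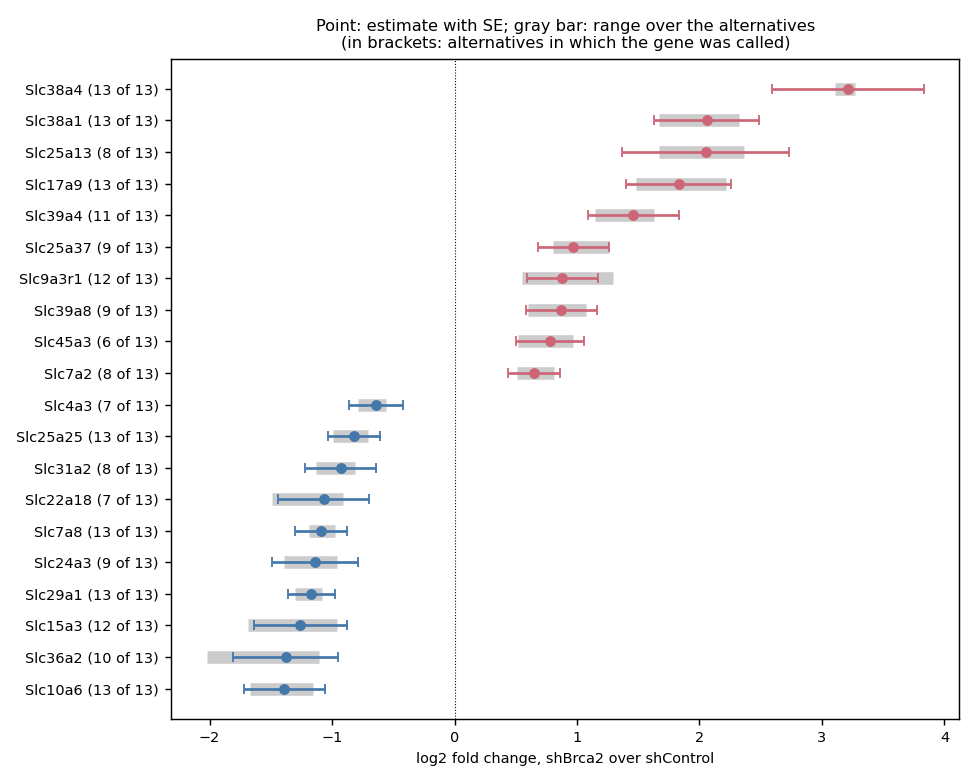
Log2 fold change (shBrca2 over shControl) of the 20 called genes, as a point with its SE, over a gray bar that spans the estimates of the 13 alternative fits, with the number of alternatives that called the gene in brackets. No gray bar crosses 0, and 7 genes (Slc38a4, Slc38a1, Slc17a9, Slc25a25, Slc7a8, Slc29a1 and Slc10a6) were called in all 13.

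Leaving out single libraries showed how far the 20 calls rest on each. 7 genes kept the call in all 13 alternatives, and none of the 20 changed sign. Without shControl replicate 1, 11 of the 20 calls were lost, and without shBrca2 replicate 1, 9. In the same fits the share of all genes called fell to 4.93% and 4.82%. Replicate 4 of shControl or of shBrca2, when left out, cost 7 calls each. shBrca2 replicate 3 cost 5, and replicate 2 of either group cost 2. shControl replicate 1 was the lowest of the shControl libraries for 8 of the 10 genes called higher. shControl replicate 4 was the highest of them for 8 of the 10 called lower. Among shBrca2 libraries, replicate 3, the least deeply sequenced, was the highest for 7 of the 10 genes called higher. Replicate 2 of shBrca2, the most deeply sequenced library, was the highest of that group for 6 of the 10 called lower, which lies toward shControl. edgeR's quasi-likelihood test called the same 20 genes, with 8.74% of all genes called. Of 19 called members matched to the later annotation, 10 share exon bases with another gene, mostly gene models without an established name, so part of their counts may belong to an overlapping transcript.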

How the data were processed

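The authors deposited 1 table of raw counts per gene symbol (whole numbers, not normalized) with a column for each of the 7 libraries. The submitters' processing notes name bcl2fastq, cutadapt, STAR 2.4.2a, HTSeq, DESeq2 and mm10. Strand handling and the collapsing of molecular barcodes are not given in the sources used here, so counts may include PCR copies, and reads of overlapping genes cannot be told apart. Counts are from 3' ends, and levels were compared between libraries and not between genes. Intervals of pooled counts cover counting error only.

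DESeq2 1.42.0 in R 4.3.3 was fitted on all 12771 genes with median-of-ratios size factors and no covariate, and p-values were adjusted over all genes. Fold changes were not shrunken. The alternatives were edgeR 4.0.16 with TMM, TMM factors or the Wald test in DESeq2, a filter of 10 counts in 3 libraries, no independent filtering, the replicate number as a block, and each library left out. On simulated counts for 12771 genes, the DESeq2 test recovered 69.2% of genes altered by 1 log2 unit and 100% of those altered by 2, and 13.1% of its calls were false. The simulation altered 200 genes, each by 1 or 2 log2 units, while 1154 genes were called in the data. Its rates depend on these settings and are not rates for the data. All altered genes were drawn from genes with higher means than Slc38a4 and Slc25a13. The recovery rates therefore do not cover genes of such low level. No libraries of a group agreed within counting noise, with a lowest mean chi-square per gene of 3.01.

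Every called member was named, plus 39 well known members called or not, with exceptions marked where they stand; 1 further listed member is not reported here. The members, classes and lists were chosen with earlier results of these data known. Positions and promoters are RefSeq GRCm38.p6, and 210 members matched. Shared exon bases were counted in a GRCm39 annotation with no coordinates printed.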

Additional observations from a re-analysis of the deposited data

Results flagged for a closer look

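Within the 4 shBrca2 libraries, 1 library stood apart from the other 3 for 5 of 70 genes checked by Dixon's ratio, a rule that flags about 1 group in 20 by chance. Slc39a8, the ZIP8 metal importer, had 172.7 normalized counts in shBrca2 replicate 3 and 109.8 to 120.5 in the others. Slc4a3, the chloride-bicarbonate exchanger, had 138.2 in shBrca2 replicate 3 and 86.9 to 93.5 in the others. Slc11a2, the proton-coupled iron importer, had 172.7 in shBrca2 replicate 3 and 142.2 to 143.7 in the others. Sv2a, a synaptic vesicle protein of the superfamily, had 50.1 in shBrca2 replicate 3 and 23.9 to 27.4 in the others. Slc2a10, a glucose carrier of the endomembranes, had 61.8 in shBrca2 replicate 2 and 34.6 to 37 in the others. shBrca2 replicate 3 was the library with the fewest counts, and the part of depth in these values was not tested.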

How the results depend on the processing

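The calls did not move with the test, the size factors, the count filter or independent filtering: each of these 5 alternatives called the same 10 genes higher and 10 lower. Leaving out 1 library gave 3 to 13 genes higher and 5 to 12 lower. Same-numbered libraries had correlations of -0.066, -0.098 and -0.095 between their deviations from the group means, so they shared no clear deviation. These values were not set beside those of other pairs, so they cannot decide whether the replicate numbers pair the samples. A fit with the replicate number as a block called 4 genes higher and 6 lower, and under this block Slc6a8 was at -0.09 and Slc4a4 at 0.06, opposite in sign to the reported fit. The 10 calls lost under the block were Slc7a2, Slc4a3, Slc22a18, Slc24a3, Slc25a13, Slc25a37, Slc31a2, Slc39a4, Slc39a8 and Slc45a3.

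Class medians moved with the count filter for peptides (-0.89), calcium exchange (-0.20), zinc (-0.08) and monocarboxylates (0.56), where fewer genes entered the median, and under the block for peptides (-0.67). With single libraries left out, medians ran from -0.18 to 0.02 for sugars, -0.19 to 0.00 for amino acids, -0.22 to 0.13 for neurotransmitters, -1.69 to -0.58 for peptides, -0.07 to 0.44 for calcium exchange, -0.04 to 0.13 for zinc, -0.25 to -0.09 for iron, heme, copper and magnesium and -0.49 to -0.10 for organic ions. Of the 55 named genes, those that changed sign in those fits were not called: Slc1a4 (-0.56 to 0.03), Slc6a8 (-0.10 to 0.15), Slc2a9 (-0.32 to 0.84), Slc2a10 (-0.50 to 0.13), Slc4a4 (-0.26 to 0.20), Slc25a5 (-0.03 to 0.23), Slc40a1 (-0.25 to 1.38), Slc11a2 (-0.16 to 0.16) and Slc35a1 (-0.09 to 0.08). The cause of these changes was not tested. Depth limits genes with few counts, 21 members having a mean of 5 or less.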
